A study of Mus musculus with 295 samples.

Results

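Among the F2 mice whose fat carried little Eif2s3y transcript, the 47 with the most macrophage message were compared with the 47 with the least. The 142 Eif2s3y-low mice were those of 295 with a deposited ratio of Eif2s3y, a Y-linked translation factor gene, below -0.6. They were ranked by a score, the mean of the z-scores of Adgre1, which codes for the F4/80 surface protein, and of Cd68, a lysosomal membrane protein of macrophages. The members were thus chosen by measured values of these 3 genes. The 47 highest are called macrophage-rich, the 47 lowest macrophage-poor, and 48 mice lay between them. All other probes were then compared between the sides, 94 mice of the 295 in all.

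The series profiled adipose RNA of F2 mice from a cross of C57BL/6J and C3H/HeJ, 1 array per mouse. Macrophage-rich and macrophage-poor mice alike descended from parents with an ApoE null background, and all were given a high-fat Western diet between 8 and 24 weeks of age. The series held females and males, but the labels name neither the fat depot nor the sex, genotype or weight of a mouse, so the sets are called by their Eif2s3y level. RNA of a mouse carried Cy3, and Cy5 marked a common pool to which every mouse contributed equally.

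Values are log2 ratios of the mouse over the pool, so 0 is the pool's level and a difference of 1 is 2-fold. They compare mice for 1 probe and do not rank genes by abundance. Fold sizes rest on reading the deposited values as log10 ratios with the mouse on top, which the files do not state. Adjusted p-values come from limma with Benjamini-Hochberg adjustment over all probes tested. Each array is 1 mouse and none was repeated, so the spread over mice includes technical error, and the number of arrays limits the precision.

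Macrophages are the most numerous immune cells of fat. In lean fat they are mostly resident cells that clear debris and are fed by local division. In obesity, monocytes drawn in by chemokines such as Ccl2 settle around dying adipocytes in crown-like structures, take up their lipid, and build up lysosomes, Trem2, Gpnmb and the integrin CD11c, the product of Itgax. Adipocytes in such fat are known to take up less glucose and to lose mitochondrial enzymes.

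The sides differed in the 2 genes that chose them, which is given as description only. Adgre1 had a lowest, median and highest log2 ratio of -0.37, 0.32 and 1.27 in macrophage-rich mice, against -3.04, -1.53 and -0.84 in macrophage-poor mice. Cd68 had -0.27, 0.16 and 1.12 in macrophage-rich mice, against -2.40, -1.45 and -0.47 in macrophage-poor mice. Over the 142 mice the 2 genes had a Pearson r of 0.92 and a Spearman rho of 0.94, each from 1 probe on shared arrays. The score ran without a gap through both limits: the last mouse inside the rich side had 0.555 and the first outside it 0.551, and the last inside the poor side had -0.445 and the first outside it -0.428.

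Some features of the arrays moved with the score. Mouse numbers averaged 216 ± 98.2 in macrophage-rich and 153 ± 103 in macrophage-poor mice (SD, n = 47 each; permutation test, two-sided, adjusted p = 0.00666 over 3 measures). Missing values averaged 259 ± 127 per array in macrophage-rich and 190 ± 103 in macrophage-poor mice (adjusted p = 0.00666, permutation test), while array medians gave an adjusted p of 0.943 in the same test. Transcripts of steroidogenic cells, such as Cyp11a1, stood above the rest in 14 macrophage-rich and 23 macrophage-poor arrays. The labels do not say what a mouse number stands for, and values within 3 ranges of it, or with the range in the fit, are given below.

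Of 23011 probes tested, 7954 (34.6%) differed at an adjusted p under 0.05, of which 3465 (15.1% of those tested) were higher and 4489 (19.5%) lower in macrophage-rich mice. Large differences ran mostly upward. At least 2-fold, 279 probes (1.21%) differed: 219 probes (0.952%) were higher, naming 164 genes, and 60 (0.261%) were lower, naming 48 genes. The median difference of all probes was -0.0026 and the median absolute difference 0.10. For 17 probes every macrophage-rich mouse had a value and lay above every macrophage-poor mouse, and for none did all lie below. Probes lacking a value in some macrophage-rich mice were left out of these counts. In such bulk RNA, more macrophages and more macrophage RNA per cell cannot be told apart, nor can fewer adipocytes and less RNA per adipocyte.

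The gene with the largest difference was Gdf3, a TGF-beta family ligand made by macrophages. Its lowest, median and highest log2 ratios were -0.14, 1.14 and 2.67 in macrophage-rich mice, against -3.56, -1.96 and -0.19 in macrophage-poor mice. The groups did not overlap. The difference was +3.08 ± 0.15 (SE), 8.47-fold, with an adjusted p of 4.19e-33.

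Slc37a2, a sugar-phosphate transporter of macrophages, had the largest moderated t. Its levels were -0.29, 0.34 and 1.30 (lowest, median and highest) in the 44 macrophage-rich mice with a value, against -2.93, -1.77 and -0.70 in the 47 macrophage-poor mice, so that all 44 lay above. The difference of +2.26 ± 0.10 was 4.80-fold (adjusted p = 3.27e-36). Tyrobp, the adaptor through which Trem2 and other myeloid receptors signal, was at -0.41, 0.17 and 1.18 in macrophage-rich mice and at -2.25, -1.56 and -0.62 in macrophage-poor mice. It too separated the groups fully, with a difference of +1.67 ± 0.08 (adjusted p = 7.94e-33).

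The other genes with the largest t were Metrnl, a secreted meteorin-like protein, Myo1f, a myosin of leukocytes, Evi2a, Slc11a1, the phagosomal metal transporter Nramp1, Tbxas1, the thromboxane synthase, the lectin receptor Clec4a2, the dipeptidase Dpep2, the probe annotated as APH1B, and Rgs1, a brake on chemokine receptor signalling. Their differences ran between +1.25 for Metrnl and +2.46 for Rgs1. Full separation held for Metrnl, Slc11a1, Tbxas1, Clec4a2 and Dpep2, and 46 of 47 macrophage-rich mice lay above every macrophage-poor mouse for Myo1f and for APH1B. A second APH1B probe differed by +0.13 only.

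Large differences also marked adhesion, protease and receptor genes. Itgad, the CD11d integrin of macrophages, reached -2.37, -0.54 and 1.41 in macrophage-rich mice and -5.32, -3.53 and -1.07 in macrophage-poor mice, a difference of +2.91 ± 0.19. Mmp12, the macrophage elastase, reached -2.57, -0.64 and 0.73 in 42 macrophage-rich mice and -6.32, -3.64 and -1.64 in 47 macrophage-poor mice, a difference of +2.85 ± 0.205 (SE). Both genes were far below the pool in macrophage-poor mice, with a slight overlap of the groups. Itgax differed by +2.17 ± 0.15 and Adam8, a metalloprotease of leukocytes, by +2.48 ± 0.13.

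Genes better known from other cells were among the largest differences too. Il7r, the interleukin-7 receptor best known from lymphocytes, had levels of -0.57, 0.17 and 1.61 in macrophage-rich mice, against -3.25, -2.27 and -0.05 in macrophage-poor mice (+2.24 ± 0.14, adjusted p = 2.46e-27). F7, coagulation factor VII, which is best known from the liver, differed by +2.41 ± 0.15. Tph2, the tryptophan hydroxylase known from neurons, differed by +2.20 ± 0.18, with 1 macrophage-rich mouse as low as -3.27. Stap1, an adaptor of haematopoietic cells, differed by +2.11 ± 0.15.

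**Figure D1:**
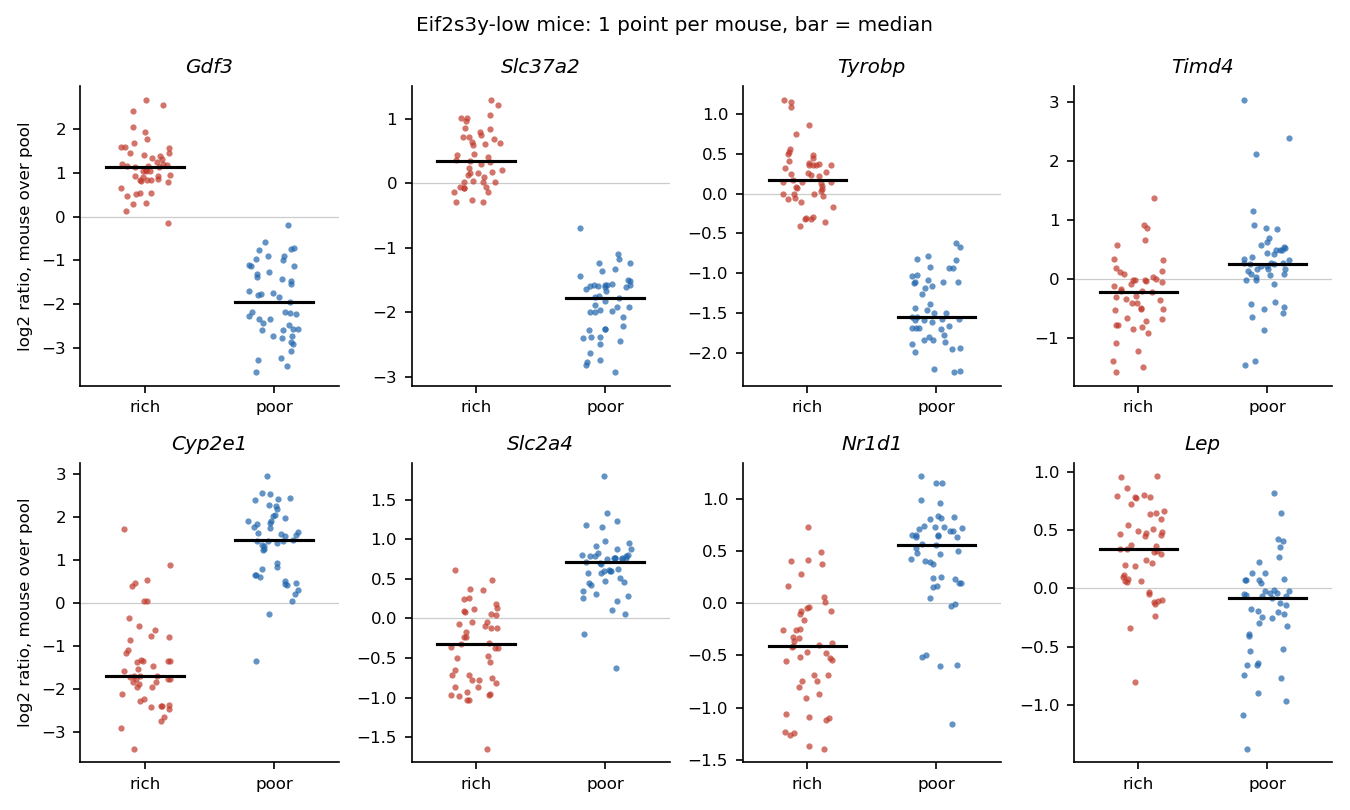
Log2 ratio (mouse over pool, vertical axes) of 8 genes in macrophage-rich mice (red, left) and macrophage-poor mice (blue, right), 1 point per mouse, with the median as a bar. Gdf3, Slc37a2 and Tyrobp do not overlap between the groups, Cyp2e1, Slc2a4 and Nr1d1 are lower and Lep higher in macrophage-rich mice with overlap, and Timd4 runs against the other macrophage genes.

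Genes that identify macrophages, other than the 2 in the score, were higher almost throughout. Of 16 tested, 14 were higher and none lower, with a median difference of +1.17. Examples are Mpeg1, a pore-forming protein of phagocytes (+1.87 ± 0.11), Msr1, a scavenger receptor (+1.65 ± 0.11), Lyz2, the myeloid lysozyme (+1.27 ± 0.09), and Csf1r, the receptor for the growth factor CSF1 (+0.97 ± 0.07). Cx3cr1, the fractalkine receptor, at +0.05, and the Ctss probe, at -0.02, did not pass (adjusted p = 0.483 and 0.688).

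Receptors for antibody, complement and microbes followed the same course, with 12 of 13 tested higher, none lower and a median of +1.11. Fcgr1, the high-affinity IgG receptor, had levels of -0.20, 0.41 and 1.37 in macrophage-rich and -2.21, -1.23 and 0.25 in macrophage-poor mice (46 mice each, +1.62 ± 0.09). Clec7a, the beta-glucan receptor dectin-1, differed by +1.90, Itgb2, the shared beta chain of leukocyte integrins, by +1.56, and C1qc, a chain of complement C1q, by +1.11. Tlr4, the endotoxin receptor, whose gene is mutated in C3H/HeJ, one of the parents, differed by +0.29.

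Lysosomal and lipid-laden macrophage genes had the highest median of the 46 lists, +1.24, with 10 of 10 tested higher. Besides Mmp12 these were Gpnmb, a glycoprotein of lipid-laden macrophages (+2.44 ± 0.20), Ctsk (+1.62 ± 0.11), the lysosomal acid lipase gene Lipa (+1.36 ± 0.09), Ctsb (+1.33 ± 0.08), Cd9, Ctsz, Ctsd, Lamp2 and Fabp5. The mean of these genes lay between -0.84 and 0.86 in macrophage-rich mice and between -2.21 and -0.95 in macrophage-poor mice, so that all 47 macrophage-rich mice lay above all 47 macrophage-poor mice. A further 9 members had values on too few arrays for the main fit. Trem2, the lipid receptor that marks such cells, had a value in 25 macrophage-rich and in all 47 macrophage-poor mice, with medians of -0.08 and -2.19 and a difference of +2.18 without the filter on missing values (adjusted p = 1.85e-19). Missing values were thus more frequent on the side where Trem2 was high. Other members under the filter had values on at most 16 macrophage-rich arrays. Without it, Ctsl (+0.91), Ctsa (+0.67), Plin2 (+0.57) and Cd63 (+0.51) were called higher. Lpl (+0.47), Cd36 (+0.05) and Acp5 (-0.03) did not pass (adjusted p = 0.203, 0.874 and 0.908).

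Transport of cholesterol out of cells was mixed. Of 8 genes tested, 4 were higher (Pltp, Npc1, Abcg1 and Apoc2) and 2 lower (Scarb1 and Apoe), with a median of +0.18. Over all probes, 15.1% were higher and 19.5% lower. Abcg1, an exporter of cholesterol to HDL, had levels of -0.53, 0.06 and 0.99 in macrophage-rich and -1.29, -0.35 and 0.75 in macrophage-poor mice, a difference of +0.47 ± 0.07. Abca1, which loads ApoA1, differed by +0.09 (adjusted p = 0.486). The probe for Apoe, the gene disrupted in the parents, was at -0.89, -0.03 and 0.90 in macrophage-rich and at -0.77, 0.28 and 1.39 in macrophage-poor mice. Its difference of -0.26 ± 0.09 (adjusted p = 0.0121) was +0.11 within the lowest range of mouse numbers and -0.21 with an adjusted p of 0.0676 with the ranges of mouse number in the fit.

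Markers of resident and alternatively activated macrophages split. Of 13 tested, 6 were higher and 4 lower, with a median of +0.32. Higher were Pf4, a platelet and macrophage chemokine (+1.09 ± 0.09), the mannose receptor gene Mrc1 (+0.91 ± 0.08), the folate receptor gene Folr2 (+0.76 ± 0.10), Stab1, Clec10a and Il10. Lower were Timd4, a phosphatidylserine receptor of long-lived resident macrophages, the haemoglobin scavenger receptor gene Cd163, the lectin gene Mgl2 and the hyaluronan receptor gene Lyve1.

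Timd4 had levels of -1.58, -0.21 and 1.37 in macrophage-rich mice, against -1.46, 0.26 and 3.03 in macrophage-poor mice (-0.55 ± 0.14, adjusted p = 0.00126). Cd163 had -1.24, -0.03 and 0.94 in macrophage-rich mice, against -0.70, 0.46 and 1.44 in macrophage-poor mice (-0.51 ± 0.11, adjusted p = 6.3e-05). Within the 3 ranges of mouse number Timd4 differed by -0.54, -0.88 and -0.47, and the first and the last of these did not pass. Both genes overlapped widely, with 2 and 7 macrophage-rich mice below every macrophage-poor mouse. Arg1, the arginase gene often used as a marker of alternative activation, differed by +0.09 and did not pass (adjusted p = 0.281).

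Several chemokines were higher. The list of inflammatory cytokines and chemokines had 15 of 22 tested higher, 2 lower and a median of +0.33. Ccl2, the main monocyte attractant, was at -1.23, 0.11 and 0.80 in macrophage-rich mice and at -2.84, -1.59 and -0.45 in macrophage-poor mice, with 42 of 47 macrophage-rich mice above all others. Its difference of +1.76 ± 0.11 was 3.40-fold (adjusted p = 1.51e-27). Ccl3 differed by +1.63 ± 0.13, Ccl9 by +1.57 ± 0.11, Ccl4 by +1.32 ± 0.11 and Ccl7 by +1.29 ± 0.11. Ccl12 and Ccl8, which also draw monocytes, did not pass (-0.14 and +0.32, adjusted p = 0.176 and 0.0833). The classical cytokines moved less: Tnf differed by +0.70 ± 0.10, Il6 by +0.23 ± 0.05 and Il1b by +0.19 ± 0.07. Il1rn, the interleukin-1 receptor antagonist, and Ptgs2, the inducible cyclooxygenase, were lower by -0.22 and -0.23.

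Antigen presentation and the oxidative burst followed the macrophages. Of 7 MHC class II genes tested, 5 were higher (median +0.43), led by H2-DMb1, a peptide-loading chain (+1.06 ± 0.09), and H2-Aa, an antigen-presenting chain (+0.89 ± 0.09). H2-Oa and H2-Ob, inhibitory chains best known from B cells, were at -0.02 and -0.01 and did not pass. Of 6 genes of the NADPH oxidase and burst list, 5 were higher (median +1.04), among them Ncf4 (+1.56 ± 0.12) and the catalytic subunit gene Cybb (+1.19 ± 0.11).

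The promoters of the genes at least 2-fold higher were searched for 1 motif of PU.1, a transcription factor of macrophages, because these genes moved together. The letters were GAGGAAGT on either strand, within 250 bases before to 50 after a RefSeq gene start (GRCm38.p6). The 4 genes shown have the largest differences among the matched genes read here, 1 listed start each, and capitals mark the match.
Mmp12 (chr9:7344147-7344446, plus strand): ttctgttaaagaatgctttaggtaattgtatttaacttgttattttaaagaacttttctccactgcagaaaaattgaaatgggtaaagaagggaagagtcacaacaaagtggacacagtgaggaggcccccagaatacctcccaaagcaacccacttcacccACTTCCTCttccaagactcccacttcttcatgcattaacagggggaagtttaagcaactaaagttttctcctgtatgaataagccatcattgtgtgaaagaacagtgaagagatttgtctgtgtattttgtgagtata
Arhgap25 (chr6:87496278-87496577, minus strand): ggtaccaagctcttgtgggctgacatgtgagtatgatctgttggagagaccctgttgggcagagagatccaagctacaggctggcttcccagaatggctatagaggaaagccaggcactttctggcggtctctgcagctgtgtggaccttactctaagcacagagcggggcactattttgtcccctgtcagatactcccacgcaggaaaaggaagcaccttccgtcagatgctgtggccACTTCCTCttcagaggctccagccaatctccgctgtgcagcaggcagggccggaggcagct
Cd72 (chr4:43454577-43454876, minus strand): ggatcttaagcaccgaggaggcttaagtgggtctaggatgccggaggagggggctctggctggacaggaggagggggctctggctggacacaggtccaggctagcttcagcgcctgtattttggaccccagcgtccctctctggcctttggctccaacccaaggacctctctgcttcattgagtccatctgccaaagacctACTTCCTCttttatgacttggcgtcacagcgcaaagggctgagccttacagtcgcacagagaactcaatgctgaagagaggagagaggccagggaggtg
Hpgds (chr6:65144681-65144980, minus strand): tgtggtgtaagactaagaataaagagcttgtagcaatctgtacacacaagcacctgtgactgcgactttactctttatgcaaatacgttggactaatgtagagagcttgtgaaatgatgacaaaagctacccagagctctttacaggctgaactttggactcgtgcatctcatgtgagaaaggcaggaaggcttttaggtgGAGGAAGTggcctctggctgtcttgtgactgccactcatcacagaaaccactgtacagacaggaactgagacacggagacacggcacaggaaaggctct

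Of the 164 genes at least 2-fold higher, 118 were matched to the promoter table, with 140 promoters. The PU.1 letters stood in 18 of those 140 (12.9%), in 322 of 10837 promoters of all genes tested (2.97%) and in 1052 of all 32851 promoters in the table (3.2%). Among genes at least 2-fold lower it was 1 of 40 promoters (2.5%). A match is a run of letters and not a site shown to be bound, and genes of families can share promoter sequence, so these shares are a description. The letters TCACGTGA, of the lysosomal gene network motif CLEAR, stood in 0 of the 140 promoters and in 1.43% of those of all genes tested.

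The 4 genes shown are leukocyte genes. Arhgap25, which controls Rac in phagocytes, had levels of -0.57, 0.16 and 1.45 in macrophage-rich mice and -2.58, -1.74 and -0.38 in macrophage-poor mice (+1.84 ± 0.10). Cd72, a C-type lectin also carried by B cells, was at -0.36, 0.21 and 1.16 in macrophage-rich and at -2.46, -1.67 and 1.67 in macrophage-poor mice (+1.78 ± 0.12). Hpgds, the prostaglandin D synthase of haematopoietic cells, was at -0.65, 0.30 and 1.40 in macrophage-rich and at -2.06, -1.24 and -0.66 in macrophage-poor mice (+1.57 ± 0.08), without overlap. These 3 were chosen for their promoters after their values were seen.

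Markers of lymphocytes moved little beside these. Of 14 T cell genes tested, none passed in either direction, with a median of +0.07 and Cd3e, a chain of the T cell receptor complex, at +0.06. Of 10 B cell genes, 2 were higher, Cd22 (+1.53 ± 0.21) and Pax5 (+0.19 ± 0.06), beside 15.1% higher over all probes. The list median was +0.06. Cd79a and Cd79b, which pair with the B cell receptor, were at -0.04 and +0.17 and did not pass. The B cell list mean ran from -0.96 to 2.55 in macrophage-rich and from -1.23 to 2.84 in macrophage-poor mice. With that mean in the fit, Cd22 differed by +1.28 and Pax5 by +0.17, both still called. Both genes are part of that mean, so this fit is not an independent check of them. Pax5 was not called without arrays carrying other tissue transcripts.

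Of 8 NK and cytotoxic genes, 2 were higher (Eomes and Klrk1) with a median of +0.14, beside 15.1% higher over all probes. Klrk1 was not called with the range of mouse number in the fit (adjusted p = 0.0741), nor Eomes without arrays carrying other tissue transcripts (adjusted p = 0.0642). Of 11 neutrophil genes, 3 were higher, led by S100a8 (+1.28), with a median of +0.20. Another 2 were lower, among them the lactoferrin gene Ltf (-0.83), beside 19.5% lower over all probes. The dendritic cell list had 2 higher and 3 lower of 5, with Cd83 at +1.51 and the integrin gene Itgae at -0.53. Of 9 mast cell genes, 4 were higher and 3 lower (median +0.11). Of 4 eosinophil genes, Siglecf, which alveolar macrophages also carry, was higher (+1.12 ± 0.14) and Alox15 lower (-0.74).

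The largest decrease was that of Cyp2e1, a cytochrome P450 that oxidises ethanol, acetone and fatty acids. Its levels were -3.39, -1.69 and 1.71 in macrophage-rich mice, against -1.35, 1.47 and 2.95 in macrophage-poor mice, and 29 of 47 macrophage-rich mice lay below every macrophage-poor mouse. The difference of -2.77 ± 0.20 was 6.81-fold (adjusted p = 6.22e-23). Of 11 detoxification enzymes tested, Cyp2e1 included, 9 were lower and none higher, with a median of -0.37. Among them were the glutathione transferase gene Gsta3 (-1.14 ± 0.10) and the catalase gene Cat (-0.77).

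Slc2a4, the insulin-driven glucose transporter GLUT4, was at -1.64, -0.32 and 0.61 in macrophage-rich mice, against -0.62, 0.72 and 1.80 in macrophage-poor mice. The median macrophage-rich mouse was below the pool and the median macrophage-poor mouse above it, with overlap (-1.01 ± 0.09, 2.02-fold, adjusted p = 6.18e-17). The insulin list had 6 of 11 lower and 2 higher (median -0.22), beside 19.5% and 15.1% over all probes. Irs1, an insulin receptor substrate, was lower by -0.22 and Foxo1 by -0.54, while the receptor Insr, at -0.07, did not pass. A second Irs2 probe differed in the opposite direction from the first, so Irs2 has no settled direction.

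Adipocyte identity and storage genes had 8 of 16 lower, none higher and a median of -0.23. Pck1, which supplies glycerol for triglyceride in fat, was at -1.72, -0.37 and 0.97 in macrophage-rich and at -0.68, 0.76 and 1.86 in macrophage-poor mice (-1.09 ± 0.12, adjusted p = 2.35e-13). Car3, a carbonic anhydrase abundant in fat, differed by -1.03 ± 0.14, the resistin gene Retn by -0.51 ± 0.06, and Plin1, which coats lipid droplets, by -0.46 ± 0.07. Pparg, the master regulator of adipocytes, at -0.16 did not pass (adjusted p = 0.0527).

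Fatty acid synthesis had 7 of 14 lower, none higher (median -0.29), among them Thrsp (-1.02 ± 0.15), the acetyl-CoA carboxylase gene Acaca (-0.70 ± 0.08) and the synthase gene Fasn (-0.48 ± 0.15). Cholesterol synthesis had 4 of 12 higher and 1 lower, beside 15.1% and 19.5% over all probes, and Lss, 1 of the 4, was not called without arrays carrying other tissue transcripts (+0.098, adjusted p = 0.504). Fatty acid oxidation had 8 of 12 lower, and 1 higher, Cpt1a, the carnitine transferase that lets fatty acids into mitochondria (+0.43 ± 0.05).

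Breakdown of branched-chain amino acids moved as a whole, with 11 of 11 genes tested lower and a median of -0.32. The sizes were modest, between -0.21 for the kinase gene Bckdk and -0.75 for Mccc2, a subunit of methylcrotonyl-CoA carboxylase. The tricarboxylic acid cycle had 7 of 10 lower (median -0.24), with pyruvate carboxylase, Pcx, at -0.53. The respiratory chain had 6 of 7 lower (median -0.33), with Cox8b at -0.42.

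Brown and beige fat genes had 8 of 15 lower and none higher (median -0.46). Tbx1, a marker of beige adipocytes, differed by -1.12, Prdm16, a regulator of brown fat, by -0.78, and Ppargc1a, a regulator of mitochondrial growth, by -0.55 ± 0.10. Ucp1, the uncoupling protein, ran from -3.66 to 2.22 in macrophage-rich and from -2.89 to 2.93 in macrophage-poor mice, with medians of 0.25 and 0.68, and did not pass (-0.46 ± 0.285, adjusted p = 0.206).

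Less known genes led the decreases by moderated t beside Cyp2e1, Gsta3 and Slc2a4. Nrbp2, a pseudokinase, was at -1.43, -0.56 and 1.05 in macrophage-rich and at -0.08, 0.57 and 1.53 in macrophage-poor mice, with 40 of 47 macrophage-rich mice below every macrophage-poor mouse, the most for any probe (-1.10 ± 0.08). The adhesion receptor gene Adgrg2 differed by -1.35 ± 0.10, Pacsin3, of a family that shapes membranes and GLUT4 traffic, by -0.89, Cadps2 by -0.89 and the uridine-cytidine kinase gene Uck2 by -0.77. Flvcr2 (-0.92), Opn3, a non-visual opsin (-1.03), Wdr6 (-0.67) and Zfp503 (-0.63) completed the 12. The 2 other Cadps2 probes did not pass.

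**Figure D2:**
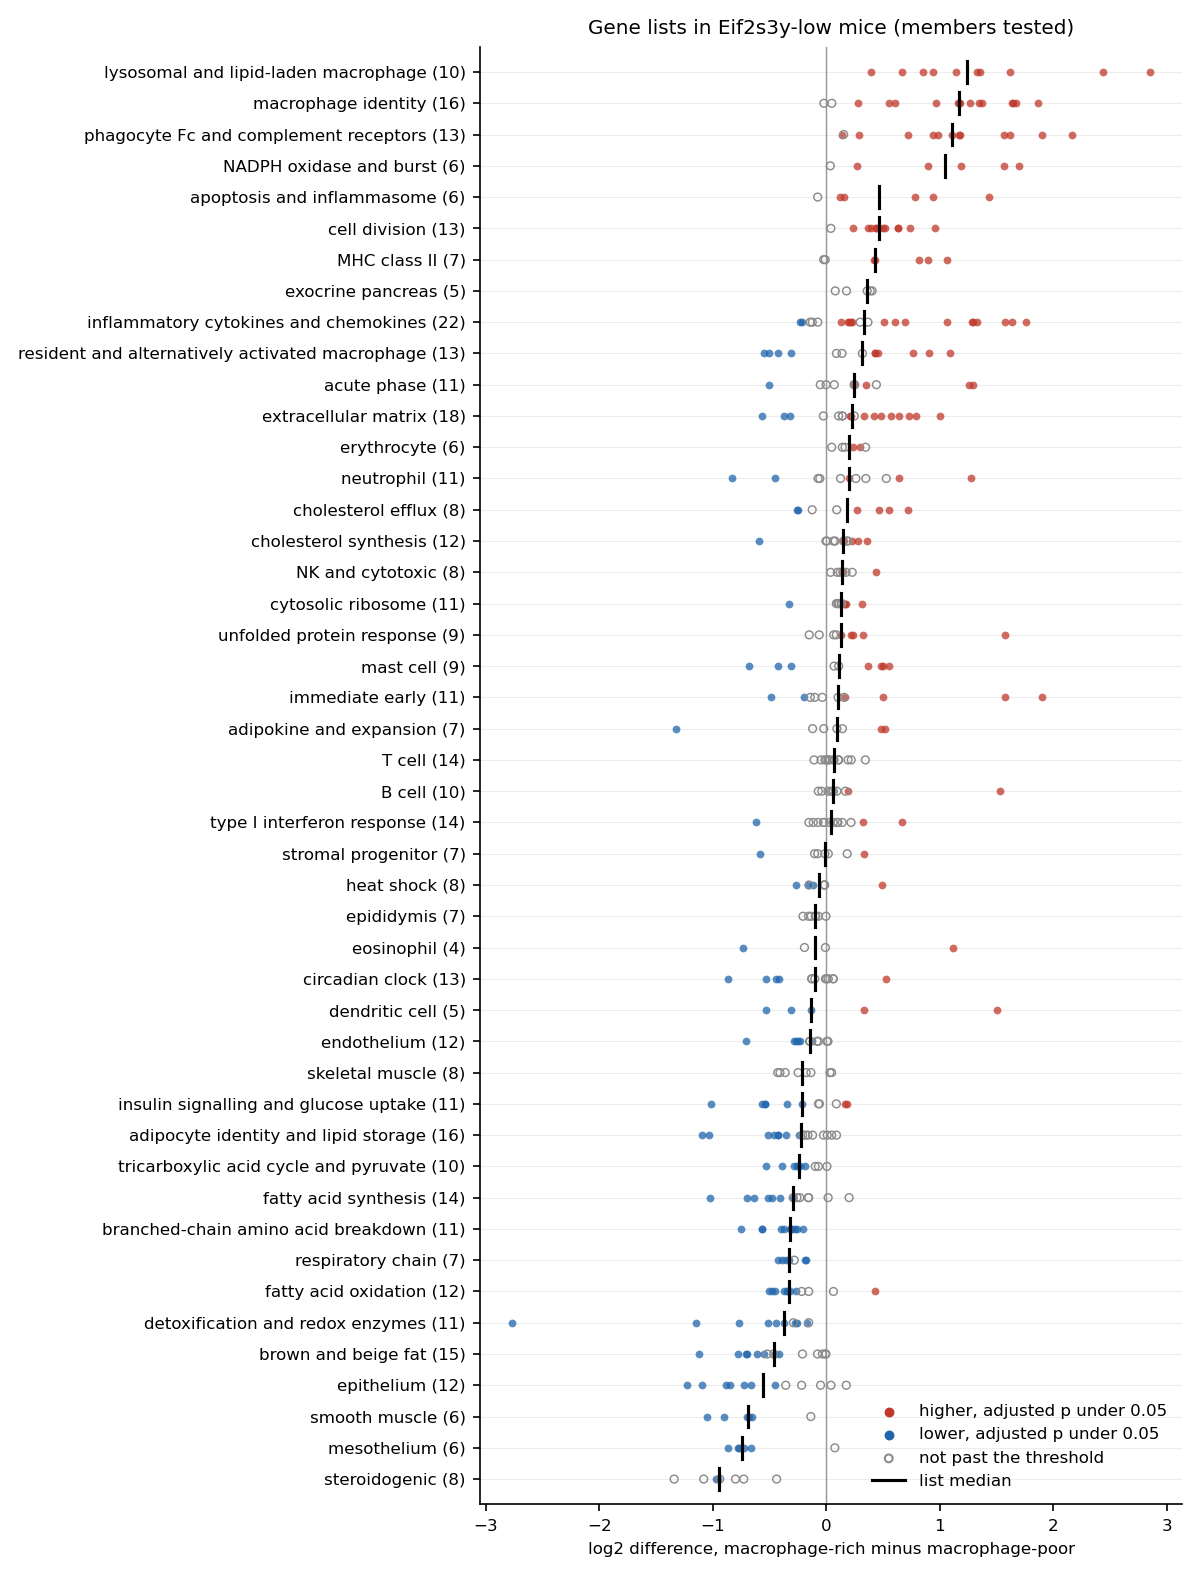
Log2 difference of every member tested (horizontal axis, macrophage-rich minus macrophage-poor) for 46 gene lists (vertical axis, with the number tested), sorted by the list median, drawn as a bar. Red and blue points passed as higher and lower, open points did not. Lysosomal, macrophage and Fc receptor lists have medians above 1, while epithelial, smooth muscle, mesothelial and steroidogenic lists stand lowest.

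Matrix genes were on the whole higher, with 10 of 18 tested higher, 3 lower and a median of +0.23. Timp1, an inhibitor of metalloproteases, differed by +1.003 ± 0.13, Lox, which cross-links collagen, by +0.79 and Postn, periostin, by +0.73. Ccn2, connective tissue growth factor, was lower by -0.56. Col1a1 and Col1a2 each had a probe that was called in the opposite direction, so neither has a settled direction. Genes of stromal progenitors had 1 of 7 higher, Pdgfra, and 1 lower, Dlk1, beside 15.1% higher and 19.5% lower over all probes. Dlk1 was not called without arrays carrying other tissue transcripts.

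Vessel genes were partly lower, with 6 of 12 endothelial genes lower, none higher and a median of -0.14. Kdr, the VEGF receptor, was at -1.52, -0.22 and 0.89 in macrophage-rich and at -0.67, 0.37 and 1.25 in macrophage-poor mice (-0.70 ± 0.11, adjusted p = 5.88e-08), while the junction genes Cdh5 and Pecam1, at +0.02 and +0.01, did not pass. Smooth muscle genes had 5 of 6 lower (median -0.69), among them Acta2 (-0.70) and Cnn1 (-1.05). Without arrays carrying other tissue transcripts Acta2 was -0.53 and still called, while Cnn1 (-0.59, adjusted p = 0.256) and Tagln (-0.43, adjusted p = 0.136) were not.

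Mesothelial genes had 5 of 6 lower (median -0.75) and epithelial genes 7 of 12 (median -0.56). Of both lists together, Krt8, Krt19 and Epcam were not called without arrays carrying other tissue transcripts. The steroidogenic list had a lower median still (-0.94), with 2 of 8 called, beside 34.6% of all probes. Its mean ran from -3.06 to 2.00 in macrophage-rich mice (median -2.51) and from -2.78 to 2.57 in macrophage-poor mice (median -1.35), and 14 and 23 arrays exceeded the limit set for it. Among the largest decreases, Mgarp (-1.54), Ovgp1 (-1.68), A2ml1 (-1.48) and Chrdl2 (-1.47) had medians below 0 on both sides, while their highest macrophage-poor mice reached 3.88, 4.25, 3.92 and 4.08.

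Without the arrays of both sides that carried steroidogenic transcripts, 17 of the 184 named genes no longer passed, among them Mgarp (-0.18), A2ml1 (-0.38) and Cldn3 (-0.25). Ovgp1 was -0.40 and still called, and Chrdl2 was -0.91 there, but -0.80 and not called (adjusted p = 0.0821) without arrays of any other tissue. Mgarp was not called with the range of mouse number in the fit either (-1.23, adjusted p = 0.147). Cyp2e1 was then -2.98 and Gdf3 +3.14. Pancreas, skeletal muscle and epididymis genes had no member called in either direction, of 5, 8 and 7 tested.

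Other programs moved in part. Cell division genes had 12 of 13 higher and none lower (median +0.46), among them Birc5, survivin (+0.96), and Mki67, the Ki-67 antigen (+0.46 ± 0.10). In the unfolded protein response list 5 of 9 were higher, led by Atf3, a stress-induced factor (+1.58 ± 0.10), while the others called were at most +0.32. The list of apoptosis and the inflammasome had 5 of 6 higher (median +0.47), with Pycard, the adaptor ASC, at +0.94 and Casp1 at +0.78. Egr2, a transcription factor of macrophage maturation, differed by +1.90 ± 0.13, whereas Egr1, at -0.14, did not pass.

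Interferon response genes did not move together, with 2 of 14 higher and 1 lower (median +0.05), beside 15.1% and 19.5% over all probes. Mx1 was lower by -0.62 and Oas1a higher by +0.66, and the other, Oasl2, was not called without arrays carrying other tissue transcripts. Erythrocyte genes had 2 of 6 higher and ribosomal protein genes 4 of 11 higher and 1 lower, beside 15.1% higher and 19.5% lower over all probes. Of these, Hemgn and Rpl8 were not called with the B cell mean in the fit (adjusted p = 0.0527 and 0.0681). Nor were they called with narrower sides of the ranking (adjusted p = 0.0939 and 0.067) or the score from Cd68 alone (adjusted p = 0.059 and 0.126). Hemgn also lost its call with the score from Adgre1 alone (adjusted p = 0.0528). A second probe of Rps3, the ribosomal gene called lower, was called higher (+0.20), so Rps3 has no settled direction. Heat shock genes, each by its most variable probe, had 1 of 8 higher, Hsph1, and 3 lower, beside 15.1% and 19.5% over all probes. Hspa8 was not called by that probe, but other probes of it were called higher, up to +0.41, and none lower. Other Hspd1 probes were called lower, down to -0.29, and none higher.

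Clock genes had 4 of 13 lower and 1 higher, beside 19.5% and 15.1% over all probes. Nr1d1, the repressor REV-ERB alpha, was at -1.39, -0.41 and 0.73 in macrophage-rich mice, against -1.16, 0.55 and 1.22 in macrophage-poor mice (-0.87 ± 0.10, adjusted p = 1.63e-11). Dbp, an output factor of the clock, differed by -0.53 ± 0.06, Per2 by -0.44 ± 0.11 and Nr1d2 by -0.42 ± 0.08, and Arntl, which peaks opposite to them, by +0.53 ± 0.11. The labels give no hour of sampling.

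The acute phase genes Saa3 and Saa1, serum amyloids of closely related sequence, differed by +1.30 ± 0.15 and +1.26 ± 0.15. Their list had 4 of 11 higher and 1 lower (median +0.25), beside 15.1% and 19.5% over all probes. A second probe of the acute phase gene Orm2 was called lower (-0.17), opposite to its first, so Orm2 has no settled direction. Lbp, which binds endotoxin, was higher by +0.35 and the ceruloplasmin gene Cp lower by -0.50.

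Lep, the leptin gene, was higher in macrophage-rich mice. Its levels were -0.81, 0.34 and 0.97 in macrophage-rich mice, against -1.38, -0.08 and 0.82 in macrophage-poor mice, a difference of +0.52 ± 0.08, 1.43-fold (adjusted p = 2.26e-07). Mest, an imprinted gene linked to fat expansion, was higher by +0.48, but was not called with the range of mouse number in the fit (+0.44, adjusted p = 0.055) or without arrays carrying other tissue transcripts (+0.24, adjusted p = 0.247). Egfl6, a secreted protein gene also linked to fat expansion, was lower by -1.32 ± 0.16. The other 4 of the list did not pass.

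The contrast was also fitted within 3 ranges of mouse numbers. In the lowest numbers (2 to 118) there were 9 macrophage-rich and 22 macrophage-poor mice, in the middle (125 to 228) 14 of each and in the highest (242 to 359) 24 and 11. Gdf3 differed by +3.22, +2.69 and +3.13 in these ranges, Cyp2e1 by -2.43, -3.06 and -2.88, and Slc2a4 by -0.78, -1.05 and -1.05. Lep differed by +0.58, +0.61 and +0.28, with adjusted p-values of 0.0521, 0.00396 and 0.125. Decreases in genes of the steroidogenic arrays varied more: A2ml1 differed by -1.80, -0.34 and -1.79, Ovgp1 by -1.93, -0.30 and -2.12 and Mgarp by -2.25, -0.14 and -1.37.

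The 48 mice in the middle entered neither side, and in them each probe was fitted on the score. Of 23011 probes, 211 (0.917%) had a called slope, 210 positive (0.913%) and 1 negative (0.00435%). Of the 219 probes at least 2-fold higher between the sides, 218 had a positive slope in these mice and 131 of those passed. All probes had a positive slope in 42.0%. Of the 60 probes at least 2-fold lower, 42 had a negative slope and none passed, beside 58.0% negative over all probes.

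Slopes per unit of score in these middle mice were +1.16 for Gdf3 (adjusted p = 0.00033), +0.89 for Slc37a2 (adjusted p = 2.5e-06) and +0.83 for Tyrobp (adjusted p = 7.6e-09). Cyp2e1 had a slope of -1.59, short of the threshold at an adjusted p of 0.056, and Slc2a4 one of -0.41 (adjusted p = 0.64). Lep had +0.09 (adjusted p = 0.90). The medians of the middle mice lay between those of the sides for Gdf3 (-0.23), Cyp2e1 (0.29), Slc2a4 (0.36) and Lep (0.14), but not for Timd4 (0.51), which was highest there.

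**Figure D3:**
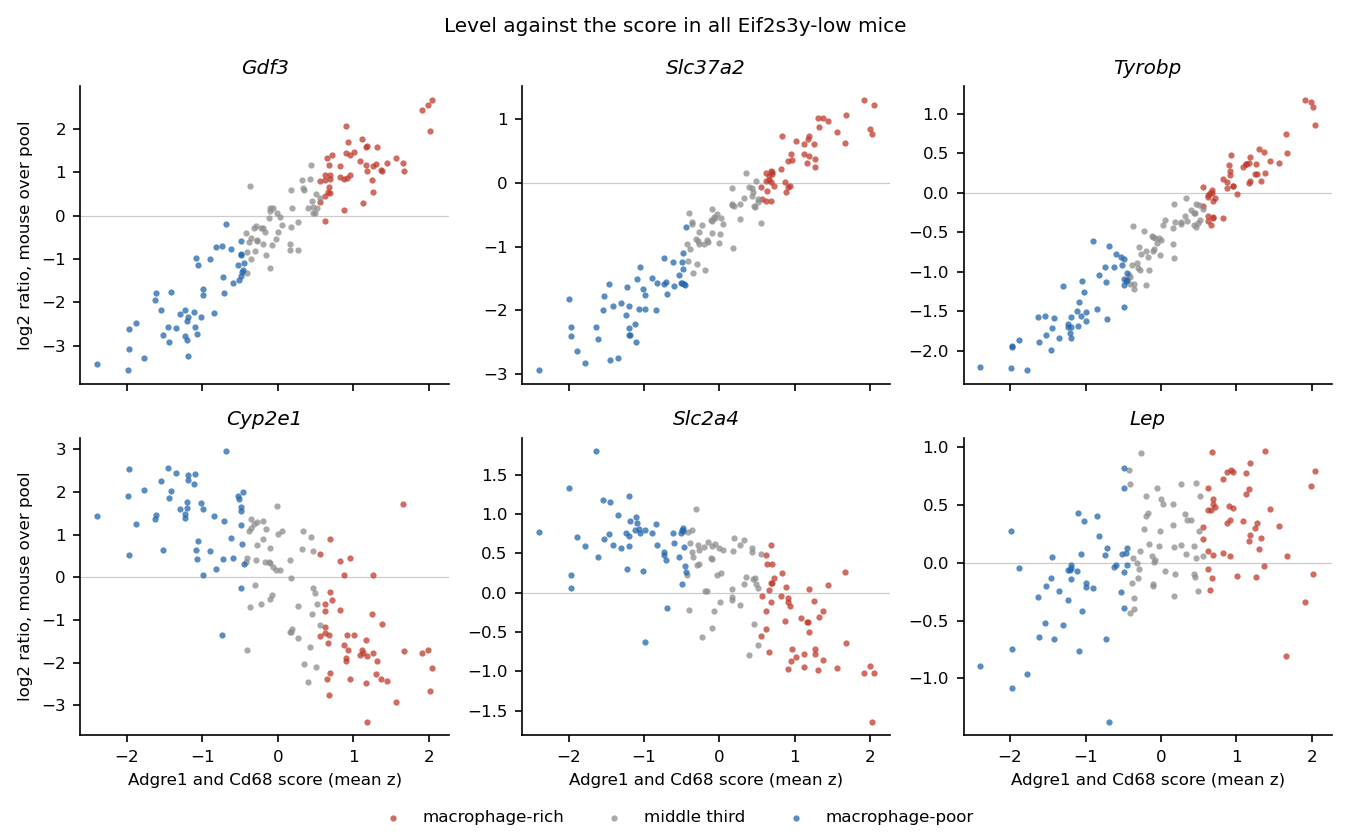
Log2 ratio of 6 genes (vertical axes, mouse over pool) against the score of Adgre1 and Cd68 (horizontal axis, mean z) in all 142 Eif2s3y-low mice, in red for macrophage-rich, grey for middle and blue for macrophage-poor mice. Gdf3, Slc37a2 and Tyrobp climb along the whole range, Cyp2e1 and Slc2a4 fall with wide scatter, and Lep scatters widely with a slight rise.

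The contrast most like this one is that in the 153 Eif2s3y-high mice. After 48 with epididymis transcripts were set aside, the other 105 gave 35 macrophage-rich and 35 macrophage-poor mice in the same way. There 9187 of 23005 probes (39.9%) were called, 4491 higher (19.5%) and 4696 lower (20.4%). Of 216 probes at least 2-fold higher in Eif2s3y-low mice and tested in both, 205 were called higher there too and 1 lower; of 60 at least 2-fold lower, 26 were called lower and 1 higher. Slc2a4 was lower in both, with a difference between the sets of -0.01 (adjusted p = 0.971), and Ctsk differed by +1.62 in Eif2s3y-low and +1.60 in Eif2s3y-high mice.

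The difference between the 2 contrasts was itself tested and passed for 2358 of 22992 probes (10.3%), 1138 positive and 1220 negative, (4.95% and 5.31%), or for 1502 with the range of mouse number in the fit. The spread of the score was not the same in both: Adgre1 differed between sides by 1.98 in Eif2s3y-low and 1.31 in Eif2s3y-high mice, and Cd68 by 1.66 and 1.26. Slopes per log2 unit of the mean of these 2 genes, over all 142 and 105 mice, were therefore compared too, an alternative chosen after seeing the data. Of the 216 probes, 83 had a larger and 1 a smaller difference between sides in Eif2s3y-low mice, but 14 had a larger and 44 a smaller slope. Tyrobp rose by 0.92 per unit in Eif2s3y-low and 0.92 in Eif2s3y-high mice, Slc37a2 by 1.20 and 1.10, and Cyp2e1 fell by 1.41 and 1.49, with no called difference of slope.

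Gdf3 differed on both measures. Its contrast was +3.08 in Eif2s3y-low and +1.11 in Eif2s3y-high mice (difference +1.97, adjusted p = 9.23e-12), and its slope 1.64 and 0.997 (adjusted p = 8.43e-08). Tph2 was +2.20 in Eif2s3y-low and -0.12 in Eif2s3y-high mice, with slopes of 1.13 and 0.31 (adjusted p = 1.15e-05). Ccl2 was +1.76 and +0.57, with slopes of 0.95 and 0.57 (adjusted p = 0.000107).

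Several genes differed in direction between the sets. Lep was +0.52 in Eif2s3y-low and -0.37 in Eif2s3y-high mice, each called, with a difference of +0.88 (adjusted p = 9.78e-08) and slopes of 0.27 and -0.13 (adjusted p = 2.6e-05). Ptx3, a pentraxin of innate immunity, was +1.28 and -0.57, and Adh4, an alcohol dehydrogenase, +0.40 and -0.60. Saa3 was +1.30 in Eif2s3y-low mice and, not called, -0.28 in Eif2s3y-high mice. In all, 182 probes were called in opposite directions with a called difference, 78 of them higher in Eif2s3y-low and lower in Eif2s3y-high mice.

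Mast cell genes were among those that differed in the other direction. The protease gene Cma1 was at -1.999, -0.62 and 0.69 in macrophage-rich and at -2.91, -0.97 and 0.24 in macrophage-poor Eif2s3y-low mice, a difference of +0.49, against +2.35 in Eif2s3y-high mice. The interaction was -1.87 (adjusted p = 5.79e-10). The list median was +0.11 in Eif2s3y-low and +1.23 in Eif2s3y-high mice, and 8 of 9 members had a called difference. Tph1, the tryptophan hydroxylase of mast and gut cells, was +0.03 and +1.58. Thbs4, a thrombospondin, was -0.80 in Eif2s3y-low and +2.07 in Eif2s3y-high mice, Ccn4, a matricellular protein, was -0.36 and +1.66, and Col8a1, a collagen of vessel walls, +0.06 and +1.18. The decreases of Thbs4 and Ccn4 in Eif2s3y-low mice were not called with the range of mouse number in the fit (-0.62 and -0.30, adjusted p = 0.0572 and 0.0875) or without arrays carrying other tissue transcripts (-0.14 and +0.12, adjusted p = 0.576 and 0.602). Of the 18 matrix genes listed and tested, 10 were higher in each set, and 7 had a called difference between sets, in both directions (Lox +0.59, Mmp2 -0.42).

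Of 13 clock genes, 3 had a called difference between sets, and of 6 mesothelial genes 2, beside 10.3% of all probes. Nr1d1 was -0.87 in Eif2s3y-low and -0.19 in Eif2s3y-high mice (difference -0.68, adjusted p = 0.00127), and Dbp -0.53 and -0.10. The mesothelial genes Msln and Wt1 were -0.87 and -0.78 in Eif2s3y-low and +0.05 and +0.25 in Eif2s3y-high mice. Of 16 adipocyte genes, 8 were lower in Eif2s3y-low and 15 in Eif2s3y-high mice, beside 19.5% and 20.4% of all probes. Their medians were -0.23 and -0.48, and for 4 of 16 the difference was called, beside 10.3% of all probes.

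**Figure D4:**
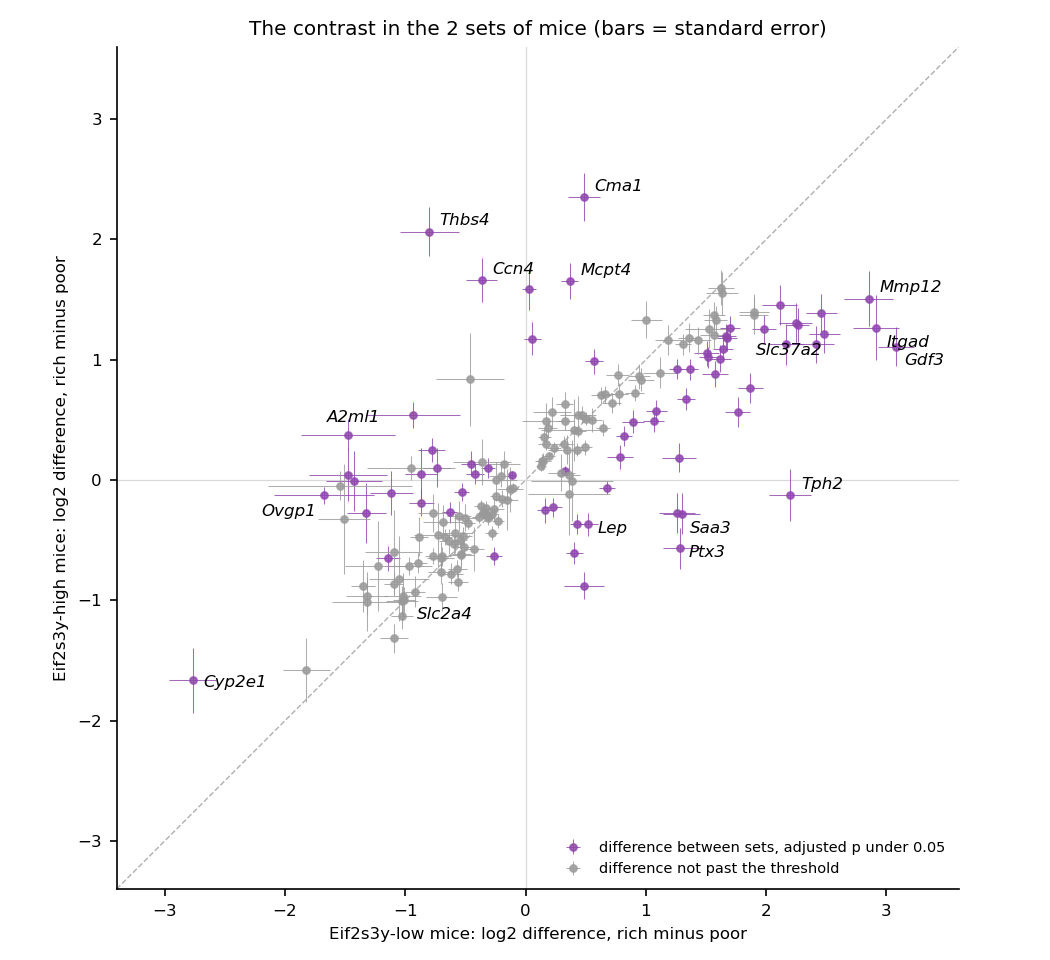
Log2 difference of macrophage-rich minus macrophage-poor mice for the 183 named genes tested in both sets, in Eif2s3y-low mice (horizontal axis) and Eif2s3y-high mice (vertical axis), with standard errors as bars and a dashed line where both are equal. Purple marks the 69 genes with a called difference between the sets. Most genes lie near the line or on the same side of 0, while Tph2, Saa3, Ptx3 and Lep lie below it and Thbs4, Cma1, Mcpt4 and Ccn4 above it.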

How the data were processed

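Adipose RNA of 295 mice was measured on 2-colour arrays, 1 per mouse, against a common pool. The authors deposited 1 table of log ratios of 23387 probes, read here as log10; how they were normalised, and the base and direction of the ratios, are not given in the sources used here. Base 10 was inferred: under it the mean linear Eif2s3y ratio of the Eif2s3y-high mice was 2.24, against 1.27 for base 2, 1.41 for natural log and 1.93 expected if the other mice had none. A mouse on top was assumed. Of the values 1.02% were missing and 527 stood at the limits of -2 and 2.

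Ratios were turned to log2 (times 3.32). Probes with a value on at least 90% of the Eif2s3y-low arrays were kept (23013; 374 left out). Each contrast was fitted with limma 3.58.1 (R 4.3.3), with no covariate, and Benjamini-Hochberg adjustment over all probes. Array measures were compared by two-sided permutation tests with 100000 resamples (SciPy 1.17.1). Of the probes, 13644 had 1 symbol, 48 several and 9695 none, and 12652 were matched to RefSeq by Entrez identifier. A gene is represented by its most variable probe.

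Named genes were the 12 largest and 12 most negative moderated t and log2 differences, the 3 members of each of 46 lists with the largest absolute t, the 6 most positive and 6 most negative differences between sets, and Lep, Apoe, Ucp1 and Il7r. Other list members were named after their values were seen. The members, lists and rule were chosen with earlier results of these data known. The macrophage score and all other probes were read from the same arrays. An array counted as carrying transcripts of another tissue where its list mean lay over 3 scaled median absolute deviations above the median. No 2 of the 10011 pairs of Eif2s3y-low arrays were identical, and 0 had an r under -0.3. Alternatives covered scaling, missing values, the score, 3 ranges of mouse number, other tissue transcripts and the test. Scripts were tested on simulated data.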

Additional observations from a re-analysis of the deposited data

Results flagged for a closer look

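The difference of macrophage-rich minus macrophage-poor mice was not the same in Eif2s3y-low and Eif2s3y-high mice for 2358 probes, by the interaction test in limma, and for 69 of the named genes. Values in brackets are the log2 difference in Eif2s3y-low minus that in Eif2s3y-high mice. The score was wider in Eif2s3y-low mice; with slopes per unit of the mean Adgre1 and Cd68 ratio, 36 of the 69 kept a called difference with the same sign and 0 had the opposite sign.

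Higher in macrophage-rich mice of both sets, and more so in Eif2s3y-low mice, were APH1B (+0.45), Adam8 (+1.27), Ccl2 (+1.20), Ccl9 (+0.69), Cd83 (+0.45), Clec4a2 (+0.55), Ctsb (+0.66), Ddit3 (+0.25) and Dpep2 (+0.73). The same held for Evi2a (+0.50), F7 (+1.28), Fcgr1 (+0.61), Gdf3 (+1.97), H2-Aa (+0.41), H2-DMb1 (+0.57), H2-DMb2 (+0.45), Il7r (+0.94) and Itgad (+1.65). The same held for Itgax (+1.04), Lox (+0.59), Metrnl (+0.33), Mmp12 (+1.34), Mpeg1 (+1.10), Myo1f (+0.49), Pf4 (+0.51), Rgs1 (+1.07) and S100a8 (+1.09). The same held for Slc11a1 (+0.44), Slc37a2 (+0.98), Stap1 (+0.66) and Tyrobp (+0.47). These values compare the sides, which were wider apart in Eif2s3y-low mice. Genes without a called difference of slope included APH1B (slopes of 0.73 in Eif2s3y-low and 0.74 in Eif2s3y-high mice), Cd83, Clec4a2, Ctsb, Dpep2, Evi2a and Fcgr1. They also included H2-Aa, H2-DMb1, H2-DMb2, Il7r, Slc37a2 and Tyrobp.

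The mean was higher in macrophage-rich Eif2s3y-low mice and lower in macrophage-rich Eif2s3y-high mice for Adh4 (+1.01), Cyp2c23 (+0.79), Iqgap2 (+0.74), Lep (+0.88), Lss (+0.45), Mest (+1.36), Ptx3 (+1.85), Saa1 (+1.53) and Saa3 (+1.58). The same held for Slc4a1 (+0.42) and Tph2 (+2.33). The mean was lower in macrophage-rich mice of both sets, by less in Eif2s3y-low mice, for Hspb1 (+0.37).

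The mean was lower in macrophage-rich mice of both sets, and more so in Eif2s3y-low mice, for Cftr (-1.42), Cyp2e1 (-1.10), Dbp (-0.43), Egfl6 (-1.05), Gsta3 (-0.49), Nr1d1 (-0.68), Ovgp1 (-1.55), Tbx1 (-1.01) and Zfp503 (-0.36). Of these, Cyp2e1 (slopes of -1.41 in Eif2s3y-low and -1.49 in Eif2s3y-high mice), Egfl6 and Gsta3 were among those without a called difference of slope. The mean was lower in Eif2s3y-low and higher in Eif2s3y-high mice for A2ml1 (-1.85), Alox15 (-0.84), Ccn4 (-2.03), Chrdl2 (-1.52), Dnajb1 (-0.16), Inhba (-1.48), Kit (-0.41), Mmp9 (-0.59) and Msln (-0.92). The same held for Nr1d2 (-0.47), Thbs4 (-2.87) and Wt1 (-1.03). It was higher in both sets, by less in Eif2s3y-low mice, for Cma1 (-1.87), Col8a1 (-1.12), Mcpt4 (-1.29), Mmp2 (-0.42) and Tph1 (-1.56).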

How the results depend on the processing

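Under the alternative settings the count of 7954 called probes ran between 6509 (mouse number as a block) and 10333 (score from Cd68 alone). Chosen after seeing the data, fits within the lowest, middle and highest range of mouse numbers called 1513, 2734 and 3736, with fewer mice. The 279 probes at 2-fold became 421 with narrower and 115 with wider sides of the ranking, and 0 or 9 if the deposited values were read as log2 or natural log. The 2358 differences between sets became 1502 with mouse number as a block, 3641 with array quality weights and 5250 with the epididymis arrays kept; the cause was not tested. Of 184 named genes 163 were called. Settings added after seeing the data aside, 141 of these kept call and direction in every setting that tested them. Only 166 of the 184 were tested where a value on every array was required. Leaving out arrays with other tissue transcripts took the call from 17, and mouse number as a block from 7. Signs turned for Apoe (0.11) in the lowest range of mouse numbers, Inha (0.059) in the middle range, Ccn4 (0.12) without other tissue transcripts, and Cd79b (-0.091), called only then, with the B cell mean as a covariate. Cd79b is itself part of that mean. No paired analysis was possible because each mouse gave 1 array and no labels pair mice. Missing values left Lpl, Fabp4 and Cd36 without a value on 108, 106 and 108 of the Eif2s3y-low arrays.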
